A study of Mus musculus with 60 samples.

Results

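Hippocampal RNA of mice that carried a melanoma labelled as not causing cachexia was compared with that of mock-injected mice late after injection, at 6 and 8 wk. The comparison held 19 of the 60 libraries in the series, chosen by their labels alone. The tumour group (NCAC) had 9 libraries, 4 at 6 wk and 5 at 8 wk, and the mock-injected group (Con) had 10, with 5 at each week. The other libraries used were 12 from mice injected with melanoma cells labelled as cachectic (CAC) at 6 and 8 wk, and 20 NCAC and Con libraries from 2 and 4 wk. Per the labels, all groups were female mice of 2 months, and they differed by the injection and the time after it. The labels disagree on the strain, which is C57BL6/J in the sample labels and NCI Ath/nude in the series' design text, and no label names the melanoma line of either tumour group. The protocol text also names a lung carcinoma line (LLC) that matches no group. The labels call the libraries biological replicates, but no label says that each is a different mouse, so a p-value here speaks only of the spread among these libraries, part of which may be technical. No tumour size, food intake or body weight was used here, so the absence of cachexia in NCAC rests on the label.

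Cachexia is a wasting syndrome of cancer in which muscle and fat are lost while inflammation and stress hormones rise. The hippocampus, a brain region for memory that also restrains the adrenal stress axis, carries many receptors for glucocorticoids. Cytokines such as IL6, which act on cells through the factor STAT3, reach it by way of its blood vessels. A tumour that grows without wasting would show effects of bearing a tumour apart from those of cachexia. A comparison of NCAC with Con addresses this question. That a tumour grew in NCAC also rests on the label.

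Levels are in TPM, which corrects for gene length and for the library's total, and differences are in log2(TPM + 0.5), NCAC minus Con unless said otherwise, with their standard error (SE). They come from limma with week as a covariate, and a gene passed when its Benjamini-Hochberg adjusted p was under 0.05. The NCAC libraries held 32388197 to 39067670 recovered reads and the Con libraries 36178789 to 42047145. Hippocampal and glial markers were present throughout: the dentate factor Prox1 lay at 35.8 to 54.5 TPM in NCAC and 35.3 to 48.1 in Con, and the microglial receptor P2ry12 at 53.4 to 71.2 and 54.1 to 75.8 in the same order. The pigment enzyme gene Tyr stayed at or under 0.0556 TPM in NCAC and 0.0404 in Con. Of the pigment cell markers, Pmel reached 1.28 TPM in NCAC and 1.42 in Con, Dct 1.22 and 0.688, and Mlana 0.912 and 0.503, in the same order. Correlations between the 19 libraries were 0.9758 to 0.991. A pair of libraries stood apart in gene groups treated here and is followed by name: replicate 5 of Con at 8 wk and replicate 3 of NCAC at 8 wk.

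No gene passed between NCAC and Con late after injection, 0 of 15608 tested (0%). The smallest adjusted p was 0.461, and 561 genes (3.59%) had an unadjusted p under 0.05, 292 higher (1.87%) and 269 lower (1.72%) in NCAC. The same comparison with limma's voom on the recovered reads also gave 0 calls, with 642 genes at an unadjusted p under 0.05. No gene had every NCAC library above or every NCAC library below the Con libraries of its own week in the same direction at both weeks (0 of 15608). The median absolute difference was 0.041 log2 and the median SE was 0.063. The 95% confidence interval of the difference lay within 1 log2 unit of 0 for 15405 genes (98.7%) and within 0.5 of 0 for 14280 (91.5%). Differences larger than these bounds were therefore outside the interval for most genes, while smaller ones were not detectable at this spread for many.

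The genes with the smallest p are given as values, since none passed. Gm12655, a predicted gene with no known role, had the smallest p of all (difference −0.40 ± 0.07, limma, adjusted p = 0.461). It was at 3.09, 3.98, 3.45 and 3.51 TPM in NCAC at 6 wk and 3.12, 3.84, 3.44, 3.16 and 3.52 at 8 wk, against 5.47, 4.18, 4.38, 3.86 and 4.50 in Con at 6 wk and 4.22, 5.6, 4.76, 4.52 and 5.71 at 8 wk. The groups did not overlap at 8 wk, and at 6 wk the highest NCAC library lay above the lowest Con library. How many of all genes did not overlap at a single week was not counted, so this describes the values only.

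Pcgf6, a subunit of a Polycomb complex that silences germline genes, came next. It lies on chromosome 19 at 47033617 to 47050906 of GRCm38 on the minus strand. Its level was 25.6, 21.6, 23.9 and 26.5 TPM in NCAC at 6 wk and 21.1, 21.4, 20.3, 22.3 and 24.1 at 8 wk. In Con it was 27.7, 25.7, 29.4, 27.4 and 29.0 TPM at 6 wk and 24.0, 25.1, 25.9, 29.1 and 27.0 at 8 wk. The ranges overlapped at both weeks, by a single NCAC library each time, and the difference was −0.23 ± 0.05 (limma, adjusted p = 0.744). In CAC the same gene differed from Con by −0.14 ± 0.05.

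The other genes lower in NCAC by the smallest p had differences of −0.38 to −0.09. Trem2, the lipid-sensing receptor of microglia, averaged 5.55 TPM in NCAC and 7.10 in Con (−0.30 ± 0.09, 95% interval −0.49 to −0.12). Card9, an adaptor of innate immune receptors, averaged 1.28 and 1.82 TPM in the same order (−0.38 ± 0.11). Foxo3, a transcription factor restrained by insulin signalling, averaged 27.4 TPM in NCAC and 30 in Con (−0.12 ± 0.03). Vipr1, a receptor for vasoactive intestinal peptide, differed by −0.16 ± 0.05, the synaptic scaffold Mpp2 by −0.09 ± 0.03, and the calcium sensor of vesicle release Doc2b by −0.18 ± 0.05. Palm3 (−0.36 ± 0.10), Xlr (−0.38 ± 0.10) and Trim27 (−0.14 ± 0.04) complete the 10 named.

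Among the 10 genes higher in NCAC by the smallest p, Stk32b, a little-studied kinase, had the smallest (0.30 ± 0.08, interval 0.14 to 0.46). It was at 5.63, 5.13, 5.07 and 4.73 TPM in NCAC at 6 wk and 5.28, 4.79, 5.56, 4.95 and 4.18 at 8 wk, against 4.00, 5.09, 4.90, 3.71 and 3.26 in Con at 6 wk and 3.72, 3.43, 3.69, 4.25 and 4.19 at 8 wk. Most NCAC libraries were high, but the ranges overlapped at both weeks. Phb, a chaperone of the inner mitochondrial membrane, averaged 79.5 TPM in NCAC and 67.3 in Con (0.25 ± 0.07). Nbl1, a secreted antagonist of BMP ligands, differed by 0.23 ± 0.06, and Spry1, an inhibitor of growth factor receptor signalling, by 0.17 ± 0.05. Il1rap, the co-receptor for interleukin 1, averaged 24.1 TPM in NCAC and 21.1 in Con (0.20 ± 0.06), and Kcnt2, a sodium-activated potassium channel, 16.9 and 15.1 (0.18 ± 0.05). Lmcd1 (0.30 ± 0.08), Dsel (0.17 ± 0.05) and Sorbs2 (0.16 ± 0.05) were also among them.

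Genes known from these data to differ between CAC and Con stood in NCAC near their Con levels, less so for Sgk1 at 8 wk. The 16 genes followed were picked for that difference, so the values in CAC describe the choice and are no test of it. Etnppl, an enzyme of astrocytes that breaks down phosphoethanolamine, was at 1.71, 0.330, 0.966 and 0.881 TPM in NCAC at 6 wk and 0.716, 1.19, 3.22, 0.854 and 0.341 at 8 wk. In Con it was at 1.42, 1.04, 0.784, 3.12 and 0.479 TPM at 6 wk and 0.833, 0.843, 0.283, 0.363 and 1.14 at 8 wk. The 12 CAC libraries had a median of 12.9 TPM, with 0.995 in the lowest and 20.1 in the highest. The NCAC and Con ranges overlapped at both weeks, and their difference was 0.10 ± 0.28, with a 95% interval of −0.49 to 0.68. NCAC minus CAC was −2.99 ± 0.35.

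Gkn3, which marks the endothelium of brain arteries in mice, was at 7.16, 8.47, 5.87 and 4.24 TPM in NCAC at 6 wk and 7.55, 6.41, 2.87, 7.74 and 6.98 at 8 wk, against 4.43, 11.1, 8.72, 7.49 and 10.1 in Con at 6 wk and 5.25, 4.01, 7.26, 5.18 and 6.59 at 8 wk. The CAC libraries reached at most 2.20 TPM, below every NCAC and Con library. The difference of NCAC from Con was −0.10 ± 0.19 (−0.49 to 0.29), and that of NCAC from CAC 2.15 ± 0.20. Etnppl is a plus-strand gene of chromosome 3 (GRCm38, 130617448 to 130637521), and Gkn3 a minus-strand gene of chromosome 6 (87383256 to 87388935).

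**Figure D1:**
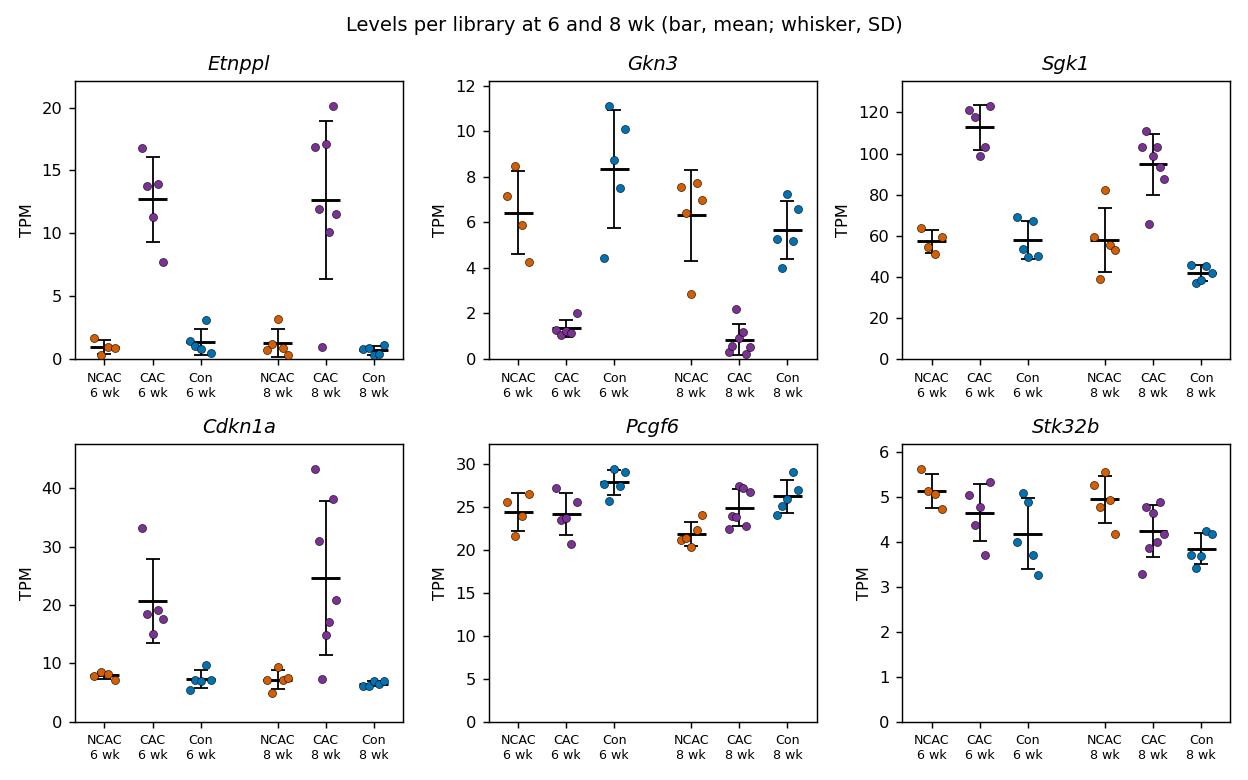
TPM (vertical axes, from 0) of 6 genes in each library of NCAC, CAC and Con at 6 and 8 wk; points are libraries, bars means and whiskers the SD. Etnppl, Gkn3 and Cdkn1a lie near the Con level in NCAC and away from it in most CAC libraries. Sgk1 in NCAC lies near Con at 6 wk but mostly above it at 8 wk (38.9 to 82.2 TPM, against 37.1 to 46 in Con). Pcgf6 and Stk32b, among the genes with the smallest p between NCAC and Con, overlap between them.

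Stress and lipid genes of the same set also lay near their Con levels in NCAC. Plin4, a coat protein of lipid droplets, averaged 5.99 TPM in NCAC and 5.62 in Con, a difference of 0.04 ± 0.34 (−0.66 to 0.75). This interval is wide because single libraries of both groups were high, at 14.5 and 13.8 TPM in NCAC and 10.8 and 9.45 in Con. Cdkn1a, a cell-cycle inhibitor induced by p53 and by glucocorticoids, averaged 7.53 and 6.91 TPM in NCAC and Con (0.12 ± 0.10, −0.08 to 0.32). Fkbp5, a co-chaperone induced by glucocorticoids that damps their receptor, averaged 33.1 TPM in NCAC and 33.9 in Con (−0.02 ± 0.09, −0.20 to 0.16). Fabp7, the fatty acid-binding protein of astrocytes and neural stem cells, averaged 60.8 and 59.5 TPM (0.02 ± 0.17), and the stem cell filament gene Nes 6.88 and 7.46 TPM (−0.09 ± 0.09). The neuropeptide gene Npy differed by 0.01 ± 0.06 and the vascular growth factor Vegfa by −0.01 ± 0.07.

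Sgk1, a kinase induced by glucocorticoids, was the member of this set with the smallest p between NCAC and Con (0.23 ± 0.11, interval −0.01 to 0.46). At 6 wk it was at 63.7, 54.6, 51.3 and 59.5 TPM in NCAC and 68.9, 53.5, 49.9, 67.4 and 50 in Con. At 8 wk it was at 59.3, 38.9, 82.2, 55.6 and 53.3 TPM in NCAC and 46.0, 37.1, 38.4, 45.2 and 41.9 in Con. Of the 5 NCAC libraries at 8 wk, 4 lay above every Con library, with a difference of 0.43 ± 0.14 at that week (limma, adjusted p = 0.40). Without replicate 3 of NCAC at 8 wk, the difference over both weeks was 0.15. The acute-phase gene Lrg1 was low in both groups, averaging 0.876 TPM in NCAC and 0.636 in Con (0.29 ± 0.19), with 0.81 ± 0.24 at 6 wk and −0.16 ± 0.23 at 8 wk. Ch25h, which makes an oxysterol, and the iron-binding Lcn2 averaged under 1 TPM in both groups, with differences of 0.10 ± 0.20 and 0.06 ± 0.18. The olfactory receptor chaperone Rtp1 and the secretoglobin Scgb3a1 differed by −0.11 ± 0.23 and 0.08 ± 0.21, and the oligodendrocyte gene Opalin by 0.11 ± 0.16.

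Across the whole table the direct comparison of NCAC with CAC at 6 and 8 wk passed for 2271 of 15608 genes (14.6%), 670 higher (4.29%) and 1601 lower (10.3%) in NCAC. With the libraries scaled by the median of ratios the count was 2128, and the split was 1045 higher and 1083 lower. CAC minus Con in the same fit passed for 2857 genes (18.3%), 2072 higher (13.3%) and 785 lower (5.03%) in CAC, or 2519 with 1251 higher and 1268 lower after median-of-ratios scaling. Leaving out the Con libraries at 8 wk with the highest MHC class I levels, replicates 1 and 5, gave 1853. These comparisons share libraries with each other and with NCAC minus Con, so their values stand side by side and were not counted as separate evidence. All 16 genes above passed in NCAC minus CAC, each with NCAC on the Con side of CAC. Npy did not pass after GC and length correction (adjusted p = 0.128).

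Of the gene lists examined, no member of any list passed between NCAC and Con. In the glucocorticoid list, of 24 members tested, 0 rose and 0 fell, and the median difference was 0.035, against 0.007 over all genes tested. Leaving out a library gave medians of −0.003, without replicate 3 of NCAC at 8 wk, to 0.072, without replicate 3 of NCAC at 6 wk. In CAC minus Con the median of the same list was 0.438, with 17 of 24 members higher in CAC, where 13.3% of all genes passed as higher. In NCAC minus CAC, 17 of 24 were lower in NCAC, where 10.3% of all genes passed as lower. The IL6 and STAT3 list had a median of −0.002 in NCAC minus Con over 17 members, with 0 passing, and of 0.391 in CAC minus Con, with 12 higher in CAC, and 12 lower in NCAC than in CAC. These lists were known to respond in CAC. All 24 and all 17 members had an interval of NCAC minus Con within 1 log2 unit of 0.

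**Figure D2:**
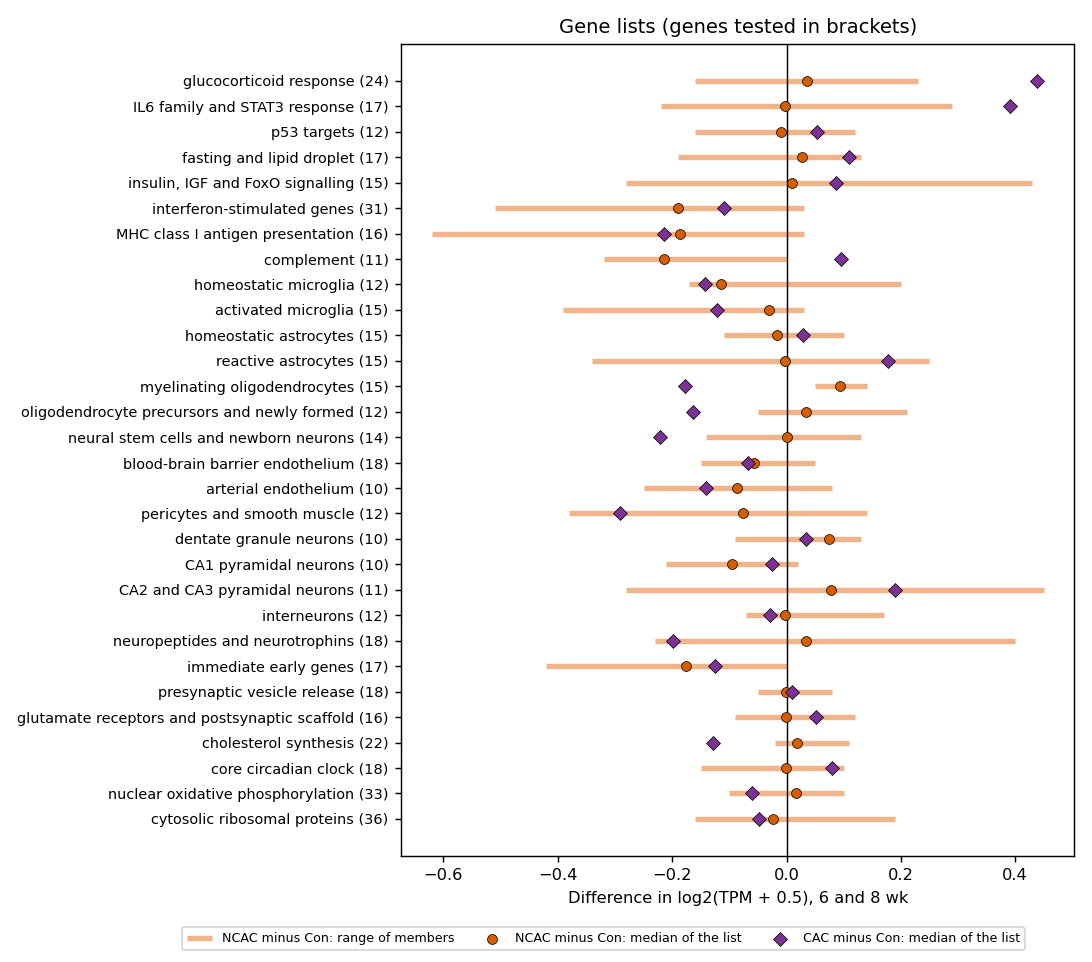
Median difference of the gene lists drawn, in log2(TPM + 0.5) (horizontal axis) for NCAC minus Con (circles) and CAC minus Con (diamonds) at 6 and 8 wk; the shaded bar spans the lowest to the highest member in NCAC minus Con. The medians of NCAC minus Con in the lists drawn lie between −0.215 and 0.094, and those of the glucocorticoid and IL6 lists are at 0.035 and −0.002 where CAC has 0.438 and 0.391.

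A single NCAC library lay further towards CAC than the others of its group. Replicate 3 at 8 wk held the highest level of the 5 libraries for Etnppl (3.22 TPM), Rtp1 (1.54), Plin4 (13.8), Sgk1 (82.2), Fkbp5 (35.7) and Cdkn1a (9.46), and the lowest for Gkn3 (2.87), Fabp7 (37.1) and Vegfa (42.6). Over the 2857 genes that passed in CAC minus Con, it was the library of its group furthest in the CAC direction for 1865 (65.3%), where an equal share of 5 libraries is 20%. Over the 39 of these genes that differed by more than 1 log2 unit the count was 23 (59%). In the other 4 NCAC libraries at 8 wk the share of the 2857 genes was 3.92% to 11.9%, and at 6 wk, where an equal share of 4 is 25%, it was 14.2% to 36.2%. Over the 16 genes followed, the count for replicate 3 of NCAC at 8 wk was 11. A mock-injected library came close: in Con at 8 wk, replicate 5 was furthest towards CAC for 10 of the 16. It was also furthest for 15 of the 39 genes (38.5%) and for 23.6% of the 2857. Replicate 4 of Con at 6 wk held Etnppl at 3.12 TPM and Cdkn1a at 9.78. Genes can vary together, so the equal share is a reference and no test. The share over all genes tested was not computed, so 65.3% cannot be read as particular to genes that differ in CAC. Of the 2857 genes, 2072 were higher in CAC. Replicate 3 of NCAC at 8 wk also had the highest median-of-ratios scaling factor of its group (0.996, against 0.936 to 0.987). It held the fewest recovered reads of the 60 libraries (32388197). Whether these traits bear on its share was not tested.

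Its Etnppl and Gkn3 levels lay between those of the other NCAC libraries and most CAC libraries: Etnppl at 3.22 TPM compares with a CAC median of 12.9, and Gkn3 at 2.87 with a CAC maximum of 2.20. Its Sgk1 level of 82.2 TPM lay above a single CAC library, replicate 3 at 8 wk (65.6 TPM), and below the others (87.8 to 123). That CAC library also had the lowest Etnppl (0.995 TPM) and the highest Gkn3 (2.20) among the CAC libraries. Replicate 3 of NCAC at 8 wk had the lowest mean over the immediate early genes of the 19 libraries, at 3.73 log2. Without it, NCAC minus Con still gave 0 calls, with 465 genes at an unadjusted p under 0.05, and NCAC minus CAC gave 3002. Without it, Etnppl differed from Con by −0.08 and Plin4 by −0.17.

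**Figure D3:**
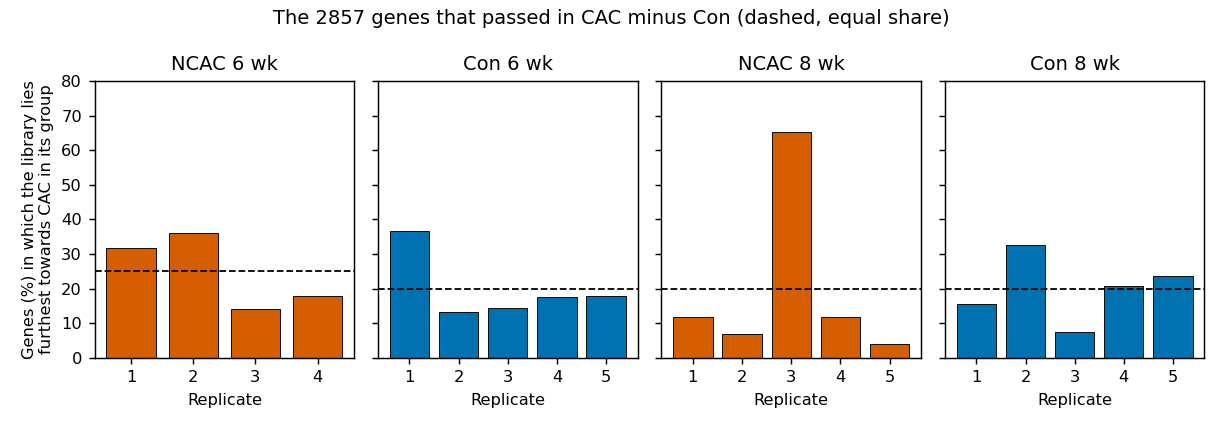
For each library of NCAC and Con at 6 and 8 wk, the percentage of the 2857 genes that passed in CAC minus Con in which it lay furthest in the CAC direction within its own group; the dashed line is the equal share (25% of 4 libraries, 20% of 5). Replicate 3 of NCAC at 8 wk stands at 65.3%, and the Con libraries, which also entered the choice of the genes, lie between 7.42% and 36.6%. The same share over all genes tested was not computed.

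Over both weeks, interferon-stimulated, MHC class I and complement genes were mostly lower in NCAC than in Con, though none passed. A single Con library carried much of the difference. Of 31 interferon-stimulated genes 28 had a negative difference (median −0.189), of 16 genes of MHC class I antigen presentation 15 (median −0.186), and of 11 complement genes 11 (median −0.215), where 45.4% of all genes tested were below 0. Unadjusted p was under 0.05 and the difference negative for 3, 4 and 3 of these members in that order, against 1.72% of all genes. At 6 wk alone their medians were −0.086, −0.011 and 0.029, and at 8 wk −0.238, −0.458 and −0.29. In CAC minus Con they were −0.11, −0.215 and 0.096. In NCAC minus CAC no interferon-stimulated or MHC class I gene passed. There 2 complement genes were lower in NCAC, against 10.3% of all genes. The activated microglia median in NCAC minus Con was −0.031 (10 of 15 negative), and the border macrophage and MHC class II median −0.014 (6 of 10). H2-K1, a classical MHC class I chain, was at 12.6, 13.5, 16.9 and 15.6 TPM in NCAC at 6 wk and 12.1, 14.1, 13, 10.2 and 14.1 at 8 wk, against 19.5, 15.8, 12.8, 17.4 and 13.3 in Con at 6 wk and 28.2, 13.7, 17.1, 16.3 and 67.1 at 8 wk. The Con library with 67.1 TPM is replicate 5, and replicate 1 is the next.

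Replicate 5 of Con at 8 wk was the highest of all 19 libraries for 12 of the 16 MHC class I genes, 15 of the 31 interferon-stimulated genes and 8 of the 11 complement genes, against 2.18% of all genes tested. It also held the most Cd74, the invariant chain of MHC class II (118 TPM, against at most 12.6 in NCAC and 22.4 in the other Con libraries), and the most Igkc, an immunoglobulin light chain (135 TPM, against at most 2.67 in NCAC and 40.8 in the other Con libraries). Its T cell genes Cd3e, Cd3d and Cd8a were at 0.491, 1.01 and 0.345 TPM. Cd3e and Cd8a were listed at 0 in all 9 NCAC libraries. Of the T cell genes tested, Trac, a T cell receptor chain, differed by 0.06 ± 0.20. Over the 5 tested, library means were 0 to 0.65 log2 in NCAC and 0.23 to 0.62 in the other Con libraries. The mean in replicate 5 of Con at 8 wk was 1.1. Without this library the medians were −0.113 for the interferon-stimulated genes (27 of 31 negative), −0.11 for MHC class I (13 of 16) and −0.109 for complement (9 of 11). Leaving out replicate 1 as well gave −0.062 (24 negative), −0.057 (12) and −0.103 (8).

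The members with the smallest p in these lists were all lower in NCAC, without passing. Psmb8, a subunit of the immunoproteasome, averaged 2.56 TPM in NCAC and 3.64 in Con (−0.40 ± 0.13, interval −0.66 to −0.13), and the difference was −0.28 ± 0.08 without replicate 5 and −0.25 without replicates 1 and 5. H2-K1 differed by −0.51 ± 0.22, and by −0.30 and −0.19 with the same libraries left out, and Tap2, a subunit of the peptide transporter, by −0.16 ± 0.07. C1qa, a chain of the C1q complement component made by microglia, averaged 85.5 TPM in NCAC and 106 in Con (−0.29 ± 0.09, interval −0.48 to −0.10), and differed by −0.22 ± 0.07 without replicate 5. At 6 wk it was at 91.1, 90.8, 81.4 and 77.5 TPM in NCAC and 103, 122, 88.7, 91.8 and 120 in Con. At 8 wk it was at 80.1, 82.8, 89.6, 78.4 and 98.0 TPM in NCAC and 96.8, 108, 98.6, 80.1 and 152 in Con. The ranges overlapped at both weeks. Irf7, a master factor of the interferon response, averaged 1.42 and 1.90 TPM in NCAC and Con (−0.32 ± 0.13), and Usp18, which curbs interferon signalling, 0.650 and 0.995 (−0.37 ± 0.14).

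**Figure D4:**
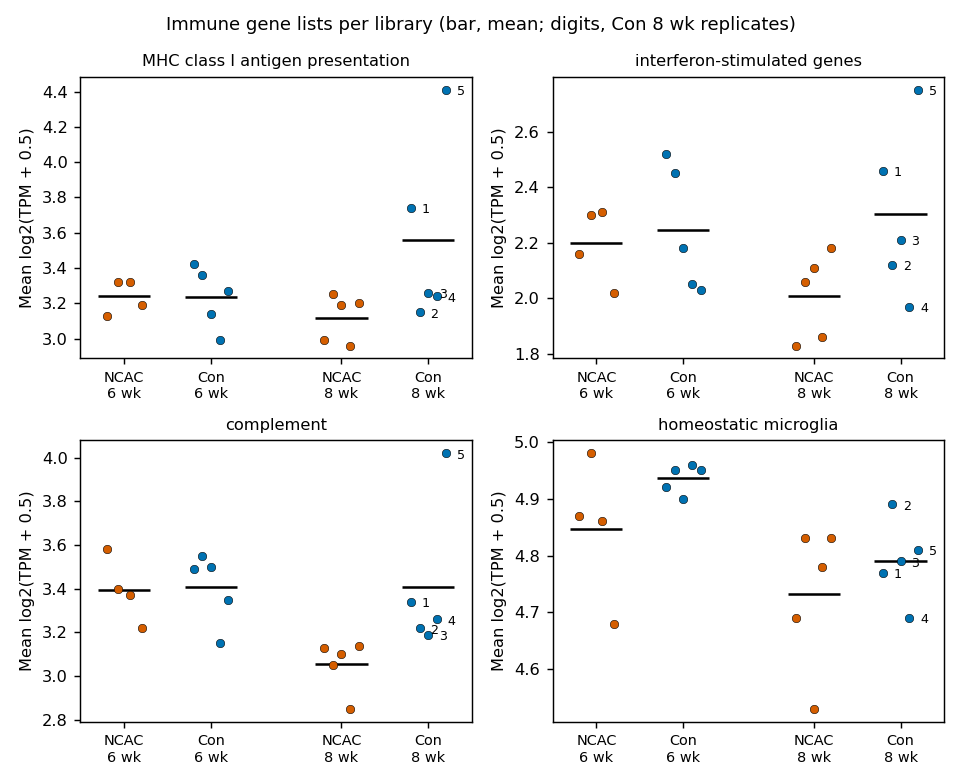
Mean log2(TPM + 0.5) over the members of 4 immune gene lists (vertical axes, which do not start at 0) in each library of NCAC and Con at 6 and 8 wk; bars are group means and digits mark the replicates of Con at 8 wk. Replicate 5 of Con at 8 wk is highest for MHC class I (4.41), interferon-stimulated genes (2.75) and complement (4.02), but not for homeostatic microglia (4.81).

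Homeostatic microglial genes did not peak in that library. Of 12 members 9 were lower in NCAC (median −0.114, or −0.098 without replicate 5 of Con at 8 wk), and 4 had an unadjusted p under 0.05. In whole tissue, fewer cells of a type and less RNA per cell cannot be told apart. Cx3cr1, the fractalkine receptor, averaged 43.1 TPM in NCAC and 47.7 in Con (−0.14 ± 0.06), and the survival receptor Csf1r 64.1 and 72 (−0.16 ± 0.07). P2ry12 averaged 61.5 ± 5.36 TPM in NCAC (SD, n = 9) and 61.3 ± 6.79 in Con (SD, n = 10). In CAC minus Con the list had a median of −0.143, with 3 members lower in CAC, where 5.03% of all genes passed as lower.

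Neuronal lists differed little. The immediate early genes, transcribed within minutes of neuronal firing, had 16 of 17 members below 0 (median −0.176) with 0 at an unadjusted p under 0.05. Without replicate 3 of NCAC at 8 wk the median was −0.096 with 14 of 17 below 0. Without replicates 1 and 5 of Con at 8 wk it was −0.14, also with 14 below 0. Fos was at 17.4, 18.0, 9.24 and 8.31 TPM in NCAC at 6 wk and 15.9, 6.16, 3.59, 4.66 and 31.4 at 8 wk, against 18.1, 12.3, 17.3, 18.0 and 16.2 in Con at 6 wk and 19.3, 12.3, 14.9, 9.75 and 9.07 at 8 wk. NCAC held both the lowest and the highest library, and the difference was −0.42 ± 0.30 with an interval of −1.04 to 0.19. Arc, which shapes synapses after activity, differed by −0.38 ± 0.23, and Egr1 by −0.27 ± 0.17. Of 10 markers of CA1 pyramidal neurons 9 were negative (median −0.096), among them the factor Pou3f1 (−0.21 ± 0.08), Fibcd1 (−0.11 ± 0.06) and Wfs1 of the endoplasmic reticulum (−0.16 ± 0.11). Of 11 markers of CA2 and CA3 neurons 10 were positive (median 0.078), with Cacng5, a subunit of AMPA receptor complexes, at 22 TPM in NCAC and 16.9 in Con (0.45 ± 0.24). Of 10 markers of dentate granule neurons 8 were positive (0.075). At 6 wk and 8 wk alone the medians were −0.142 and −0.024 for CA1, 0.136 and 0.026 for CA2 and CA3, and 0.064 and 0.029 for the dentate list. With a library left out the medians ranged from 0.051 (replicate 1 of NCAC at 6 wk) to 0.098 for CA2 and CA3, and from 0.035 (replicate 4 of NCAC at 6 wk) to 0.102 for the dentate list.

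Genes of synaptic vesicle release (18 members) and of glutamate receptors and their scaffold (16 members) each had a median of −0.001, with every interval within 1 log2 unit of 0. Their members with the smallest p were the membrane fusion protein Snap25, at 1220 TPM in NCAC and 1160 in Con (0.08 ± 0.04), and the AMPA receptor subunit Gria2, at 243 and 225 TPM (0.12 ± 0.05). The neuropeptide and neurotrophin list had a median of 0.034 over 18 genes, where CAC minus Con had −0.198. Its member with the smallest p was Crh, the corticotropin-releasing hormone, at 1.58 TPM in NCAC and 1.08 in Con (0.40 ± 0.16, interval 0.07 to 0.74), with 0.66 ± 0.23 at 6 wk and 0.17 ± 0.21 at 8 wk. The neurotrophin Bdnf averaged 22.2 and 20.2 TPM (0.13 ± 0.07).

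Glial and vascular lists were also near 0. All 15 genes of myelinating oligodendrocytes had positive differences, but small ones (0.05 to 0.14, median 0.094), and without replicate 5 of Con at 8 wk 5 of the 15 were negative and the median was 0.021. Without replicate 4 of NCAC at 6 wk the median was 0.152, and without replicate 5 of NCAC at 8 wk 0.033. At 6 wk alone the median of this list was −0.004, and at 8 wk 0.18. Mobp, a structural protein of myelin, averaged 312 TPM in NCAC and 286 in Con (0.14 ± 0.12). Mbp, a main protein of myelin, averaged 707 TPM in NCAC and 665 in Con (0.09 ± 0.11). In CAC minus Con the median of that list was −0.177. Homeostatic and reactive astrocyte lists had medians of −0.017 and −0.003, each over 15 genes. Of 18 genes of blood-brain barrier endothelium 15 were negative (median −0.057), and the arterial list had a median of −0.086 over 10 genes and the pericyte and smooth muscle list −0.076 over 12. These medians moved with single libraries. Among NCAC at 6 wk, without replicate 4 they were −0.035 for the barrier, −0.016 for the arterial and −0.046 for the pericyte list, and without replicate 2 the barrier and pericyte lists had −0.105 and −0.118. The members with the smallest p were the lactate transporter Slc16a1 (−0.14 ± 0.07), the kinase Bmx (−0.25 ± 0.13) and the pericyte gene Higd1b (−0.23 ± 0.12). Neural stem cell and newborn neuron genes had a median of 0.001 in NCAC minus Con and −0.221 in CAC minus Con, and the stem cell factor Sox2 averaged 30.5 TPM in NCAC and 33.7 in Con (−0.14 ± 0.07).

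Metabolic lists lay close to 0. Genes of insulin, IGF and FoxO signalling had a median of 0.009 over 15 members, with Foxo3 the smallest p and Foxo6, a forkhead factor of hippocampal neurons, next (−0.28 ± 0.13). The fasting and lipid droplet list had a median of 0.027, cholesterol synthesis 0.018, nuclear oxidative phosphorylation 0.016 over 33 genes and cytosolic ribosomal proteins −0.023 over 36. Lists for neighbouring tissue differed between libraries more than between groups. Ttr, the thyroxine carrier of choroid plexus, spanned 19.7 to 10600 TPM in NCAC and 168 to 6700 in Con, with a difference of −0.76 ± 1.07. Of 12 choroid plexus genes 10 were positive (median 0.315), among them Calml4 (0.58 ± 0.42), and 1 had an interval within 1 log2 unit of 0. The median of that list was 1.121 at 6 wk and −0.547 at 8 wk, and with a library left out it ranged from −0.002, without replicate 3 of NCAC at 6 wk, to 0.585, without replicate 1. The striatum and thalamus lists had medians of 0.032 and −0.001. Of 7 erythrocyte genes 6 were positive (median 0.305, or 0.176 without replicate 2 of NCAC at 6 wk and 0.179 without replicate 2 of Con at 6 wk). The erythrocyte median was 0.644 at 6 wk and 0.065 at 8 wk. Hba-a1 was at 381 TPM in NCAC and 271 in Con (0.72 ± 0.45). Its near-identical copy Hba-a2 was at 70.4 and 116 TPM (−0.68 ± 0.50), and how reads were shared between the copies is not given in the sources used here. The melanocyte list had a median of 0.102 over 6 tested genes (0.059 without replicate 2 of NCAC at 6 wk, 0.164 without replicate 4 at 8 wk), with library means of 2.03 to 2.68 log2 in NCAC and 2.05 to 2.38 in Con.

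At each week alone, no gene passed between NCAC and Con. At 6 wk, 0 of 15608 passed (0%), with 1051 at an unadjusted p under 0.05, and with voom 0 and 1017. Leaving out replicate 5 of Con at 6 wk gave 38 calls. At 8 wk, 0 passed (0%), with 1711 at an unadjusted p under 0.05, 1162 of them higher in NCAC, and with voom 0 and 1564. Leaving out replicate 5 of NCAC at 8 wk gave 2 calls, Zfp260 and Rpl29, named after their values were seen. At 6 wk Gtse1, a cell-cycle protein, was at 0.981, 1.04, 1.46 and 1.08 TPM in NCAC and 0.536, 0.597, 0.422, 0.663 and 0.656 in Con (0.61 ± 0.13, limma, adjusted p = 0.654). Sorbs2, a synaptic adaptor, differed by 0.27 ± 0.06 at 6 wk. Lower in NCAC at 6 wk were the nuclear import receptor Ipo5 (−0.18 ± 0.04), N4bp1 (−0.17 ± 0.04) and the endosomal protein Rabep1 (−0.20 ± 0.05). At 8 wk the genes higher in NCAC by the smallest p were the endosomal sorting nexin Snx7 (0.27 ± 0.06), Kcnt2 (0.27 ± 0.06) and Fmr1, the RNA-binding protein lost in fragile X syndrome (0.19 ± 0.04).

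The differences at 8 wk and 6 wk were compared with each other, and no gene passed: 0 of 15608 (0%), with 2247 at an unadjusted p under 0.05 and a smallest adjusted p of 0.0716. With voom, H1fx passed alone (−2.05, adjusted p = 0.0236), and 1856 genes had an unadjusted p under 0.05. The count rested on single libraries, with 222 calls without replicate 5 of Con at 6 wk and 119 without replicate 5 of NCAC at 8 wk. H1fx, a linker histone, was at 10.8, 8.03, 7.01 and 10.2 TPM in NCAC at 6 wk and 3.52, 5.50, 2.99, 3.46 and 8.50 in Con. At 8 wk it was at 10.2, 7.00, 6.93, 7.11 and 10.6 TPM in NCAC and 17.9, 15.8, 17.6, 16.6 and 15.1 in Con. NCAC was thus mostly above Con at 6 wk (0.92 ± 0.22) and below it at 8 wk (−0.97 ± 0.20), and the change between the weeks was −1.89 ± 0.30.

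Lst1, a leukocyte gene, differed by 1.13 ± 0.24 at 6 wk and −0.77 ± 0.22 at 8 wk, a change of −1.90 ± 0.32 (limma, adjusted p = 0.0898). The same pattern held for Vstm2l, with −0.50 ± 0.11 at 8 wk and a change of −0.88 ± 0.16 (limma, adjusted p = 0.0898), and for the neuropeptide gene Cck, with −0.85 ± 0.19 at 8 wk and a change of −1.31 ± 0.27 (limma, adjusted p = 0.116). In all 4 genes the NCAC means at 6 and 8 wk were close and those of Con were not: Cck averaged 289 ± 86.8 TPM (SD, n = 4) and 290 ± 61.9 (n = 5) in NCAC at 6 and 8 wk, against 209 ± 67.3 and 515 ± 31.4 in Con (SD, n = 5 each). Changes in the other direction were small, at 0.30 ± 0.06 for Ipo5, 0.31 ± 0.07 for Fam73a and 0.27 ± 0.06 for Fam134b.

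The trend of levels on gene length and GC content differed between the same libraries, and its cause was not tested. The slope of a library's log2 values on gene length, per doubling, was −0.0632 to 0.0244 in NCAC and −0.0477 to 0.0705 in Con at 6 wk, and −0.0599 to −0.0442 in NCAC and −0.0984 to −0.0820 in Con at 8 wk, so that NCAC and Con did not overlap at 8 wk. In Con at 6 wk, replicate 5 had the only negative slope on length. The slope per percent of GC was 0.0015 to 0.0062 in NCAC and −0.011 to 0.0113 in Con at 6 wk. At 8 wk it was −0.0018 to 0.0078 in NCAC and 0.01 to 0.013 in Con. H1fx has 1217 bases of exon and a GC content of 71.3%. After removal of each library's trend on GC content and length, the change between the weeks was −0.79 for H1fx, −1.12 for Lst1, 0.00 for Vstm2l and −1.11 for Cck, and Rps15 and the pseudogene Rpl27-ps3 were the 2 genes that passed, named after their values were seen.

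**Figure D5:**
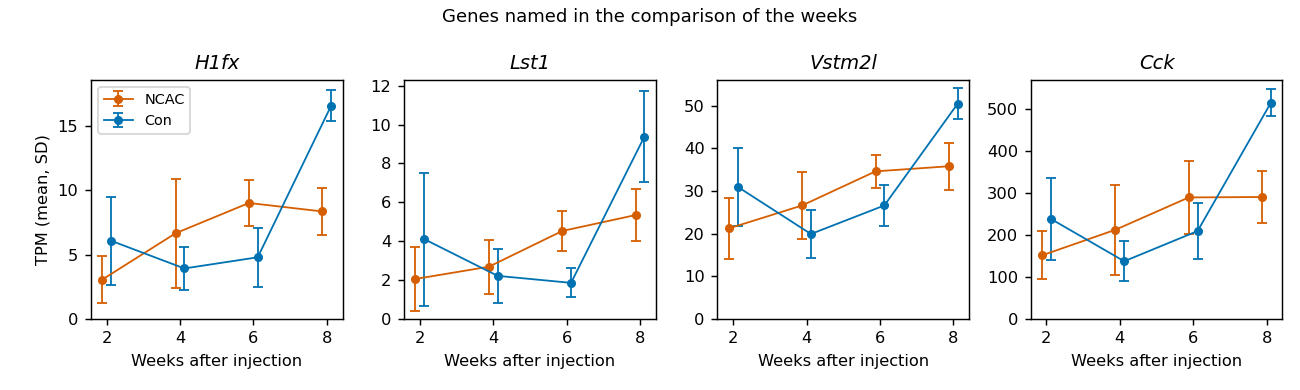
Mean TPM (vertical axes, from 0) of 4 genes in NCAC and Con against weeks after injection; whiskers are the SD over 4 or 5 libraries. The Con means at 8 wk, such as 16.6 TPM for H1fx and 515 for Cck, lie above all other means, and the NCAC means at 6 and 8 wk are close to each other.

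The late difference was also compared with that at 2 and 4 wk. NCAC minus Con at those early weeks gave 0 calls of 15608 (0%), with 801 genes at an unadjusted p under 0.05. The late difference minus the early one gave 0 calls (0%), with 686 at an unadjusted p under 0.05, a smallest adjusted p of 0.967, and 0 with voom (838 unadjusted). No difference was therefore shown to be particular to the late weeks. The largest of the named ones were those of Kctd8, an auxiliary subunit of GABA-B receptors (0.53 ± 0.14), and of Rnls, a flavoprotein named renalase (0.47 ± 0.13). Phb changed by 0.36 ± 0.09, with −0.10 ± 0.06 early and 0.25 ± 0.07 late. In the other direction were Ints5, a subunit of the Integrator complex (−0.24 ± 0.05), Trim27 (−0.22 ± 0.05) and the galactosyltransferase B4galt5 (−0.19 ± 0.05).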

How the data were processed

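The authors deposited a table of TPM for 47643 gene symbols in 60 libraries, in which every library has the same sum. Libraries were made from polyadenylated RNA after Trizol extraction, with a TruSeq kit that keeps the strand, and read on an Illumina NovaSeq, per the labels' protocols. Per the submitters' processing notes the build was mm10. No source used here names the aligner, the counter or the annotation. TPM does not remove differences between libraries in how well short or GC-rich transcripts are captured, and an increase of abundant genes lowers all others. Whole reads were recovered from the steps of the TPM values for all 24227 genes above 0 (100%, within 0.02 of a read).

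Genes with at least 1 TPM in at least 4 of 60 libraries were tested (15608) on log2(TPM + 0.5) by limma 3.58.1 under R 4.3.3. This scale understates the change of low genes. A variance trend was used, with Benjamini-Hochberg adjustment over all genes tested. NCAC minus Con was fitted over 19 libraries with week as a covariate. Each week, and the 8 wk minus the 6 wk difference, came from 4 group means, the late minus the early difference from 8, and the comparisons with CAC from 6. Intervals are at 95%. Genes named were the 10 with the smallest p per direction, as none passed, and 3 per direction in the week and early comparisons, leaving out predicted or clone-named genes, pseudogenes and means under 1 TPM; some genes that this rule names are not reported here. The members and the 51 gene lists were chosen with earlier results of these data known, so list counts and medians are descriptions. Alternatives changed the pseudocount, filter, variance trend, week term, scaling and libraries, added a replicate block, and removed trends on GC content and length (natural splines, 5 degrees of freedom) for 15035 genes with GENCODE M21 annotation (GRCm38), which also gave the coordinates. Limma's voom on recovered reads, and leaving out replicates 1 and 5 of Con at 8 wk, were added after seeing the data. The fits were tested on simulated data.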

Additional observations from a re-analysis of the deposited data

Results flagged for a closer look

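Within each group of 4 or 5 libraries, the highest or lowest library of each named gene was tested for distance from the others with Dixon's criterion on the log2 scale, in 360 groups, and 23 stood apart. Chance alone sets apart about 1 in 20 groups. Replicate 3 of NCAC at 8 wk was low in Gkn3 (2.87 TPM), Tyrobp (29.5) and Vegfa (42.6) and high in Rtp1 (1.54). Replicate 5 of Con at 8 wk was high in Psmb8 (7.51 TPM) and low in Fabp7 (45.9) and Vegfa (46.3). Other NCAC libraries that stood apart were replicate 5 at 8 wk in Foxo3 (27.7 TPM), replicate 1 at 8 wk in Mpp2 (131), replicate 2 at 8 wk in Spry1 (9.51), replicate 4 at 6 wk in Irf7 (1.4), and replicate 1 at 6 wk in Npy (108) and Bdnf (27.9). Other Con libraries were replicate 2 at 8 wk in Ipo5 (106 TPM), Gria2 (220) and Spry1 (7.85), replicate 4 at 8 wk in Cacng5 (29.1), replicate 3 at 8 wk in Phb (70.8), replicate 1 at 6 wk in Igkc (40.8), replicate 3 at 6 wk in Lcn2 (0.548), replicate 5 at 6 wk in Sox2 (38.1), and replicate 4 at 6 wk in Mbp (914) and Xlr (1.25).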

How the results depend on the processing

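NCAC minus Con over both weeks gave 0 calls under every alternative run and with each of the 19 libraries left out in turn (0 to 0, with 421 to 832 genes at an unadjusted p under 0.05), and the late minus the early difference gave 0 in all of its own (0 to 0 over 39 libraries). Leaving out a library gave 0 to 38 calls at 6 wk, 0 to 2 at 8 wk and 0 to 222 for the 8 wk minus the 6 wk difference. It gave 1514 to 3002 for NCAC minus CAC and 2205 to 3421 for CAC minus Con. With a replicate block the counts were 2 at 6 wk (Romo1 and Scand1, higher in NCAC), 1 at 8 wk (Scand1, lower), 69 between the weeks, 1080 for NCAC minus CAC and 1686 for CAC minus Con, and with the block and GC and length correction together 1307 and 1292 for these last comparisons. GC and length correction alone gave 2 calls between the weeks and voom gave 1. Leaving out replicates 1 and 5 of Con at 8 wk together gave 1853 for CAC minus Con. Causes were not tested. Libraries with the same replicate number were not more alike: over 9 same-numbered pairs of NCAC and Con, deviations from the group means correlated at −0.246 to 0.1, none over 0.1, and 0 of 9 NCAC libraries correlated best with its own number. Such correlations cannot exclude a pairing by design, and no pairing entered the main fits. With GC and length correction Npy did not pass in NCAC minus CAC (0.20, adjusted p = 0.128), nor with the block as well (0.19, adjusted p = 0.216), and the other 15 genes of that set passed in all alternatives. The spread of 9 against 10 libraries limits what could be seen in low genes and in choroid plexus and immunoglobulin genes.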
